A study of Mus musculus with 2 samples.

Results

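The genes described here are the mouse LIM homeobox (Lhx), POU, Dlx, Nkx, sine oculis (Six-family) and Iroquois (Irx) genes, 56 of the 21938 protein-coding genes on the autosomes, X and Y in GENCODE release 21 of the mm10 assembly. They were chosen by symbol, as every coding gene whose name begins with Lhx, Pou, Dlx, Nkx, Irx or the Six-family prefix and then a digit. Their numbers were 8 Lhx, 16 Pou, 6 Dlx, 14 Nkx, 6 sine oculis and 6 Irx genes. The rule also takes in Pou2af1, which is a coactivator of POU factors and has no homeodomain itself, and leaves out the LIM homeobox genes named Lmx and Isl. Chromatin accessibility was measured by DNase-seq, in which isolated nuclei are cut with DNase I and the cut ends are sequenced, so that open DNA gives many cuts. The tissue was whole cerebellum from male mice of the F1 hybrid strain B6CASTF1/J, at an age of 8 to 10 months. There was 1 group of 2 libraries, replicates 1 and 2, and each library came from a pool of 2 cerebellum biosamples. Whether any animal went into both pools is not labelled, and differences between replicates may then be technical in part. There was no second tissue, age or treatment, so members are set beside all coding genes (which include them) within each library, as a description without a test.

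These genes encode transcription factors, nearly all with a homeodomain, the helical fold that reads AT-rich DNA. They are best known as patterning genes that give cells of the embryo their identity, and several act in a gene cluster beside a close relative. In the cerebellum, Lhx1 and Lhx5 are known from the differentiation of Purkinje cells, while the Dlx genes and Nkx2-1 are known from the inhibitory neurons of the forebrain. LIM homeodomain factors bind the cofactor Ldb1, sine oculis factors bind EYA proteins, and POU factors read DNA through a further, POU-specific domain.

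In the authors' stricter list, replicate 1 had 61776 peaks and replicate 2 had 71141. The median signal of a peak was 1.40 and 0.961 on the authors' own scale. Footprints, short stretches protected from cutting inside open DNA, numbered 314116 and 320832. Read numbers were not used here. The authors also gave a longer peak list, and peaks below are those of the stricter list unless the longer one is named. If the smallest step of the signal stands for 1 cut, the strongest member start held 1395 cuts in replicate 1 and 1151 in replicate 2, and the weakest of both replicates 56 and 39, so counting error ran between 2.68% and 16.0%. Among lists of 10 marker genes each, a peak within 1 kb of a start was present in both replicates at 10 granule cell genes, 7 genes of astrocytes and Bergmann glia, 5 Purkinje cell genes, 2 oligodendrocyte genes, 2 forebrain neuron genes and 2 genes of meninges and choroid plexus. The Purkinje cell markers Pcp2, Car8, Skor2 and Ppp1r17 had no start peak in either replicate.

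By the authors' stricter peak list, most of these patterning genes were closed at their starts in the adult cerebellum. A start peak, a peak that overlaps 1 kb either side of any annotated transcript start, was found in both replicates at 12 of the 56 members (21.4%), against 55.9% of all coding genes. In replicate 1 there were 16 members with a start peak (28.6%), beside 58.4% of coding genes, and in replicate 2 there were 14, beside 57.2%. The mean over replicates was 26.8% ± 2.53 for members and 57.8% ± 0.854 for coding genes (SD, n = 2). No start peak in either replicate was found at 38 members (67.9%), beside 40.3% of coding genes, and 6 members had one in a single replicate, beside 3.82%. By the longer list, 27 members (48.2%) had none in either replicate, beside 34.9% of coding genes. In a bulk tissue, a gene open in few cells and a gene slightly open in many cells cannot be told apart.

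The families differed in this count. Open in both replicates were 7 of 16 Pou genes (43.8%), 3 of 6 Irx genes, 1 of 8 Lhx genes (12.5%) and 1 of 6 sine oculis genes (16.7%). None of the 6 Dlx genes and none of the 14 Nkx genes was open in both. The deposited tables also give a false discovery rate (FDR) of the local cut rate. Every peak of the longer list held a base with an FDR under 0.05, and every peak of the stricter list one under 0.001, which 64.1% and 63.9% of the longer list's peaks held too. A start can therefore reach that FDR without a stricter peak, as those of Lhx2 (0.000837) and Irx2 (0.000674) did in replicate 1. The longer list gave 17 members in both replicates (30.4%), beside 60.5% of coding genes. The additional 5 members were Lhx2, Lhx5, Pou2f3, Pou3f1 and Irx2, each with a stricter peak in a single replicate. Dlx and Nkx genes stayed at 0 in both replicates in the longer list too.

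**Figure D1:**
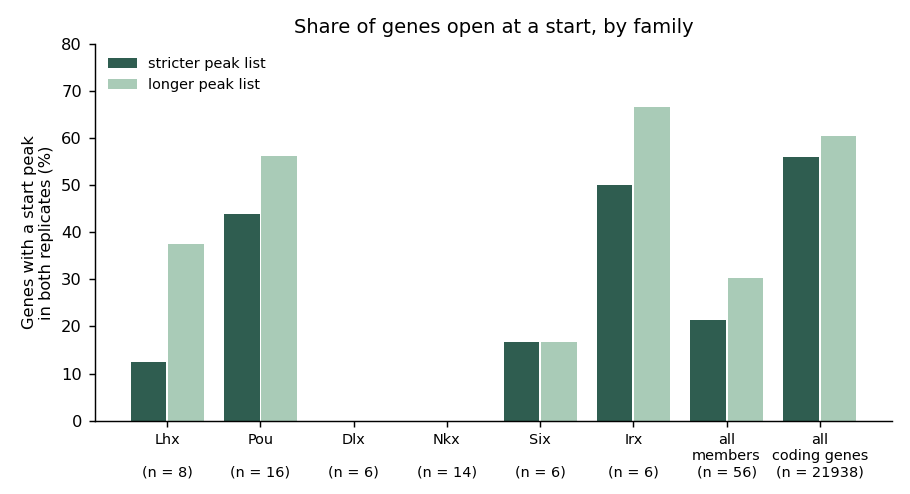
Share of genes with a peak within 1 kb of a start in both replicates, in percent, for the 6 families, all 56 members and all 21938 coding genes. Dark bars are the stricter peak list and light bars the longer one. Dlx and Nkx genes have no bar, and all members reach 21.4% in the stricter list, beside 55.9% of coding genes.

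Among the LIM homeobox genes, Lhx1 stood alone with a strong start. Its strongest start peak reached 5.95 in replicate 1 and 4.44 in replicate 2 (mean 5.19 ± 1.06, SD, n = 2), at the 60.5th and 62.9th percentile of coding genes with a start peak. Lhx1 (ENSMUSG00000018698.15, chromosome 11, 84518284 to 84525535, minus strand) was also the member with most footprints, 38 in replicate 1 and 33 in replicate 2 within 1 kb of its starts. It had 5 start peaks in replicate 1 and 7 in replicate 2, while the other open members had 1 to 4. The strongest was centred 66 bp upstream of the start of the gene and spanned 84525461 to 84525740 in both replicates. Another peak in an intron of the gene, 80 bp and 70 bp from an internal transcript start, had signals of 4.10 and 3.13.

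The start of Lhx1 faces that of the long noncoding RNA Lhx1os, whose start lies 59 bp from the centre of this peak, so the openness cannot be assigned to one of them. The 124 bases that separate both starts are shown because they hold the protected sites of the strongest LIM gene. They are on the minus strand of mm10, chr11:84525536-84525659, read towards Lhx1, with bases under footprints of both replicates in capitals.

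Lhx1 start peak: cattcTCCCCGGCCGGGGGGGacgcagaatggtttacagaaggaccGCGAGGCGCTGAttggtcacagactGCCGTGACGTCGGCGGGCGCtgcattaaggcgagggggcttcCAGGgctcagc

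The footprint near the middle covers the letters TGACGT at position 76, all 6 of them protected in both replicates. These letters, the core of the binding site of CREB and ATF factors, were looked for on both strands after the sequence was seen. They occurred in 3 of the 34 start peaks of members in replicate 1 and 2 of 31 in replicate 2, or 8.82% and 6.45%, beside 8.13% and 8.30% of the start peaks of all coding genes.

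Around Lhx1, 13 peaks in replicate 1 and 15 in replicate 2 were centred within 50 kb of its start. Of these, 7 and 8 were distal, which means centred over 1 kb from every annotated transcript start. In replicate 2, a peak centred 1054 bp from a start overlaps the 1 kb window and is counted both as a start peak and as distal. Most lay within 6 kb of the start, and a pair stood apart 28466 and 28776 bp upstream in replicate 1, with signals of 1.41 and 1.46 in replicate 1. In replicate 2 the same pair had 0.784 and 1.16. The tallest peak of the window, with 7.99 and 4.79, was the start of the neighbouring coding gene Aatf, a nuclear protein of ribosome production.

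**Figure D2:**
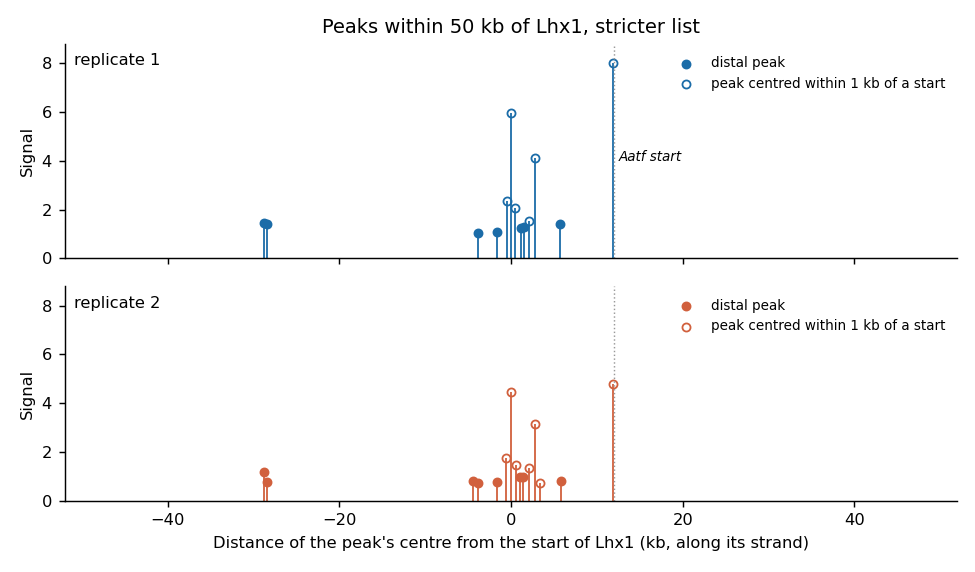
Peaks of the stricter list within 50 kb of Lhx1, with the distance of each peak's centre from the start of the gene along its strand (kb) and the authors' signal as height, replicate 1 above replicate 2. Filled points are distal peaks, open points are centred within 1 kb of an annotated start, and the dotted line marks the start of Aatf. The start peak of Lhx1 reaches 5.95 and 4.44 and the pair of distal peaks at the far left appears in both replicates.

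Lhx5, the close relative of Lhx1 in Purkinje cell differentiation, had little openness at its start. It had a start peak of 0.728 in replicate 1 and none in replicate 2, where the longer list held one of 0.442. Its strongest shared distal peak lay 9212 bp downstream of its start, in the last exon and outside the coding sequence (chr5:120440821-120441000), with signals of 4.73 and 2.13. Lhx2, a factor of eye, cortex and hair development, had no start peak in replicate 1 and one of 0.645 in replicate 2. Its strongest shared distal peak was centred 25489 bp downstream of its nearest start, between genes, with signals of 2.52 and 2.09 and 16 footprints in replicate 1.

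The other 5 LIM homeobox genes had no start peak of the stricter list in either replicate. In replicate 2 alone, the longer list held start peaks of Lhx6 (0.196), Lhx8 (0.164) and Lhx9 (0.303). Lhx3, which acts in the pituitary and in motor neurons, had no base with a listed FDR under 0.05 within 1 kb of its starts in either replicate. The family's strongest shared distal peak by mean signal lay 6462 bp upstream of it, in an intron of Qsox2 (chr2:26214661-26214840), with closely matched signals of 3.50 and 3.45 (mean 3.47 ± 0.0325, SD, n = 2). Lhx4, its relative in the pituitary, was likewise without a listed base at its start, and had 5 distal peaks in replicate 1 and 4 in replicate 2, of which the strongest (2.21 and 1.85) lay in Qsox1. Lhx6 and Lhx8, genes of forebrain interneurons and cholinergic neurons, and Lhx9, a gene of the gonads, had no distal peak within 50 kb in either replicate.

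Among POU genes, class II led. Pou2f1 (Oct-1; ENSMUSG00000026565.18, chromosome 1, 165865154 to 166002678, minus strand), which most cell types use, had the strongest start peak of all members. Its signals were 9.96 in replicate 1 and 7.28 in replicate 2 (mean 8.62 ± 1.90, SD, n = 2), at the 86.4th and 84.6th percentile of open coding genes. It was the single member above the 75th percentile in each replicate. Within 1 kb of its starts there were 34 and 26 footprints.

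The strongest peak of Pou2f1 was centred 243 bp upstream of the gene in replicate 1 and 253 bp in replicate 2. The start of the long noncoding RNA Gm26665 was nearer, 39 bp and 29 bp from the centre, so this openness, too, cannot be assigned to one of them. A noncoding start was also nearer than the gene's own to the strongest start peak of Lhx5 (86 bp), Pou3f1 (292 bp), Irx2 (49 bp) and, in replicate 2, Pou6f1 (43 bp). The 300 bases at its middle are shown since they carry 8 runs of bases protected in both replicates, the most among the start peaks whose sequence was read. They are on the minus strand of mm10, chr1:166002780-166003079, read towards Pou2f1, with bases under footprints of both replicates in capitals.

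Pou2f1 start peak: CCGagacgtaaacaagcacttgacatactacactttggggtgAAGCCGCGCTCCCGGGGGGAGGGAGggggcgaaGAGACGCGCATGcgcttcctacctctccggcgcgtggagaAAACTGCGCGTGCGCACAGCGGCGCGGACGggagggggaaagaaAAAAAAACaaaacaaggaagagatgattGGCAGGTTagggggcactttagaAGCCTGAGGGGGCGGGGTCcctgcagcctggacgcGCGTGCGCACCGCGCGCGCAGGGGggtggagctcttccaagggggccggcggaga

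The letters GCGCNTGCG, part of the binding site of NRF1, occurred at positions 81, 121 and 244, and footprints of both replicates covered 7, 9 and 7 of their 9 letters. They were looked for on both strands after the sequence was seen. Among the start peaks of members, 2 of 34 held them in replicate 1 (5.88%) and 2 of 31 in replicate 2 (6.45%), beside 9.07% and 8.53% of the start peaks of all coding genes. A match to letters is a description and does not show which protein was bound.

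Pou2f2 (Oct-2), known from B cells and also present in neurons, had start peaks of 3.19 and 1.92, at the 32.2nd and 27.3rd percentile. That peak lay at an internal start in an intron, and a second one of 2.86 and 1.76 lay at the outermost start. Pou2f3, a factor of tuft cells, had a start peak of 0.542 in replicate 1 and none in replicate 2. Pou2af1, the B cell coactivator OCA-B, had none.

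The class III genes, which act in neural precursors and glia, were open at a low level. Pou3f3 (Brn-1) had start peaks of 1.87 and 1.17, Pou3f2 (Brn-2) of 1.01 and 0.556, and Pou3f4 (Brn-4) of 0.692 and 0.265. Pou3f1 (Oct-6), a regulator of Schwann cell myelination, had one of 1.20 in replicate 1 and none in replicate 2. So 3 of 4 class III genes were open in both replicates, each below the 18th percentile of open coding genes. Pou6f1 (Brn-5), a class VI gene of the adult brain, had start peaks of 1.83 and 1.35. Pou5f2, a gene of male germ cells, had a weak start peak of 0.435 and 0.284. It sits within an intron of Fam172a, so its openness could belong to either gene. Its relative Pou5f1 (Oct-4), the pluripotency factor, and Pou1f1, the pituitary factor Pit-1, had no start peak and no base with a listed FDR in either replicate.

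**Figure D3:**
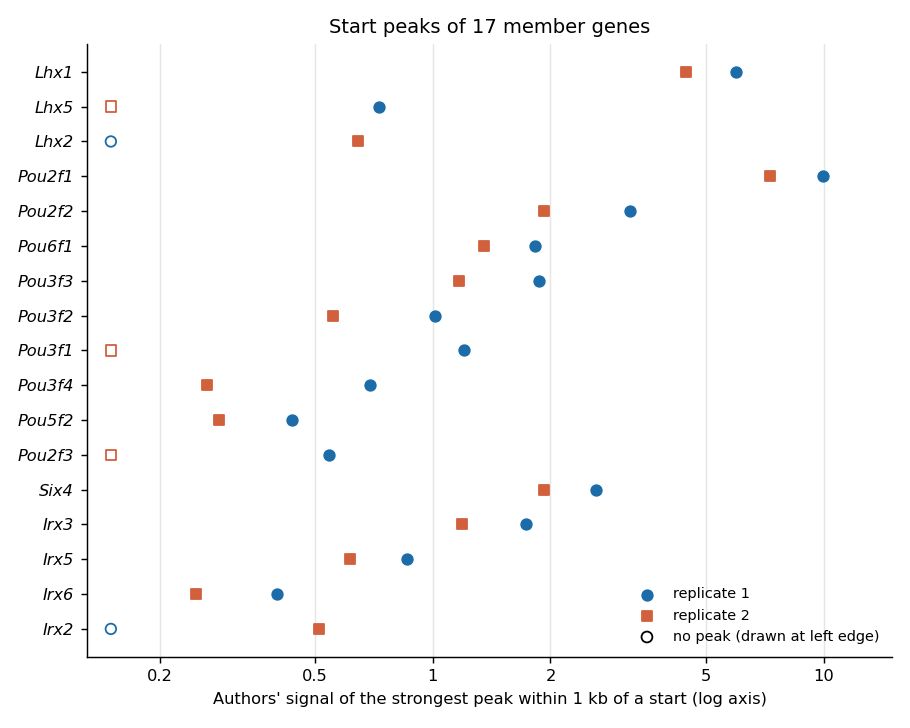
Authors' signal of the strongest peak within 1 kb of a start, on a log axis, for 17 members with a start peak in at least 1 replicate, by family and then by mean signal. Circles are replicate 1, squares replicate 2, and open symbols at the left edge mark a replicate with no peak. Pou2f1 and Lhx1 lead, and wherever both replicates had a peak, replicate 1 was higher.

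The class IV genes Pou4f1, Pou4f2 and Pou4f3, the Brn-3 factors of sensory neurons, were the POU genes with least open chromatin around them. None had a peak of the stricter list within 50 kb in either replicate, and none had a base with a listed FDR at its starts. Pou4f1 had the highest CpG content of all members, with an observed over expected ratio of 1.02 and 125 CpG within 500 bp either side of its start. The 250 bases upstream of Pou4f1 are shown as the plainest example of a CpG-rich start without a peak. They are those of RefSeq for GRCm38.p6, chr14:104468000-104468249 on the minus strand, with the 47 CpG in capitals.

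Pou4f1 upstream: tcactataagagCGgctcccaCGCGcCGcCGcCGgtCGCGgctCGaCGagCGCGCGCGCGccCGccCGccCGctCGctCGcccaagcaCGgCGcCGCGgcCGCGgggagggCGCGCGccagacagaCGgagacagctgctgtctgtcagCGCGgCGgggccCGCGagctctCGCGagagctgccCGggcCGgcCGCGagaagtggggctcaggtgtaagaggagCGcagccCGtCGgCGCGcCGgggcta

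Dlx genes lie in pairs that are transcribed towards each other, and no Dlx gene had a start peak of the stricter list. The nearest starts of Dlx1 and Dlx2 were 15170 bp apart, those of Dlx3 and Dlx4 25682 bp, and those of Dlx5 and Dlx6 18270 bp. Dlx5 and Dlx6, which act in limb, jaw and forebrain, had no peak of the stricter list within 50 kb in either replicate and no base with a listed FDR at a start. Dlx1 and Dlx2, the forebrain interneuron genes, shared 1 distal peak in replicate 1 and had none in replicate 2. Dlx2 was the one Dlx gene with a listed base at a start in both replicates, with a lowest FDR of 0.0451 and 0.0299. It had a start peak of 0.303 in the longer list of replicate 2. Dlx4 had a lowest FDR of 0.00146 and a peak of 0.485 in the longer list of replicate 1, and nothing listed in replicate 2.

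The pair of Dlx3, a gene of placenta and skin, and Dlx4 was the exception in its surroundings. Dlx3 had 4 distal peaks in replicate 1 and 3 in replicate 2. Dlx4 had 3 and 2, all of which were also counted for Dlx3. The strongest was centred 13078 bp upstream of Dlx3 in replicate 1, between genes, with signals of 4.47 and 2.09. Its 200 bases are shown as the strongest distal peak of a family without a start peak of the stricter list. They are on the plus strand of mm10, chr11:95106941-95107140, with bases under footprints of both replicates in capitals.

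Dlx3 distal peak: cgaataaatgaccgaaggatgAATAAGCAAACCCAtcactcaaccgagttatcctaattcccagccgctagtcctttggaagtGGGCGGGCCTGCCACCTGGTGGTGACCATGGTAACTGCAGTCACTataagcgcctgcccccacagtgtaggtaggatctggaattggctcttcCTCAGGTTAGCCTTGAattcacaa

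Nkx genes had no start peak that both replicates shared. In 10 of 14 Nkx genes no base within 1 kb of a start had a listed FDR under 0.05 in either replicate, which was also so for 27 of the 56 members, beside 33.7% of coding genes. These 10 were Nkx1-1, Nkx1-2, Nkx2-1, Nkx2-2, Nkx2-3, Nkx2-5, Nkx2-6, Nkx2-9, Nkx3-2 and Nkx6-3, which include the genes of thyroid and ventral forebrain (Nkx2-1), ventral neural tube (Nkx2-2), heart (Nkx2-5) and skeleton (Nkx3-2). Nkx6-2, known from oligodendrocytes, had a peak of 0.914 in the longer list of replicate 1 and none in replicate 2.

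None of the 14 Nkx genes was without a distal peak within 50 kb in both replicates, beside 24.7% of coding genes. Nkx6-3, a stomach gene, had most, with 7 in replicate 1 and 4 in replicate 2, of which 2 were shared. The other 5 of replicate 1 were weak, with signals of 0.271 to 0.314, lay in Gpat4 and were absent from replicate 2. The strongest in the family, with 6.88 and 3.99, lay 47686 bp from Nkx1-2 in an intron of Fgfr2, and its nearest coding start was that of Oat. Nkx3-2 had a peak of 3.08 and 1.46 between genes, 4090 bp upstream of its start (chr5:41768501-41768680). Nkx2-2 had one of 2.88 and 1.30 in its own coding exon, 8220 bp downstream of its nearest start.

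Of the sine oculis genes, Six4 alone had a start peak, with 2.61 in replicate 1 and 1.93 in replicate 2 (mean 2.27 ± 0.479, SD, n = 2), at the 25.4th and 27.4th percentile. Six4 (chromosome 12, 73099609 to 73113456, minus strand) acts in muscle and in sensory organs. The 144 bases of the Six4 peak upstream of the gene are shown as the one open start of the family. They are on the minus strand of mm10, chr12:73113457-73113600, and end at the base before the start of the gene, with bases under footprints of both replicates in capitals.

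Six4 start peak: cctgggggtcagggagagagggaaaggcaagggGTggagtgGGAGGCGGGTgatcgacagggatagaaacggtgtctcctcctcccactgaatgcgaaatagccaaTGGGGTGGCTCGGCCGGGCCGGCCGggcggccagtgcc

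Six3, a gene of the eye and the forebrain, had no listed base at its starts, but 3 distal peaks in replicate 1 and 6 in replicate 2. Its neighbour Six2, a kidney gene whose start lies 67223 bp away, had 2 and 5, all of which were also counted for Six3. The strongest of these, 12800 bp downstream of the nearest start of Six3, had signals of 2.13 and 0.904. Six5 had a peak of 1.26 in the longer list of replicate 1 and none in replicate 2, and 3 and 5 distal peaks. None of these distal peaks was shared, and the nearest coding start was that of Dmwd or Fbxo46. The 5 of replicate 2 were weak, with signals of 0.202 to 0.657, and lay in an intron of Fbxo46.

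The Iroquois genes form clusters of 3 on chromosomes 8 and 13, and the open members of both replicates were all in the chromosome 8 cluster. On chromosome 8, Irx3 had start peaks of 1.73 and 1.19, Irx5 of 0.857 and 0.613 and Irx6 of 0.400 and 0.247, so all 3 were open in both replicates. On chromosome 13, Irx1 and Irx4 had no peak of the stricter list within 50 kb in either replicate, and Irx2 had a stricter start peak of 0.512 in replicate 2 alone. The levels of the chromosome 8 genes were low, between percentile 0.777 and percentile 16.1 of open coding genes. Irx3 had 13 and 10 footprints within 1 kb of its starts, Irx5 7 and 5, and Irx6 2 and 1. Noncoding starts lay close by, with that of Irx3os 114 bp from the centre of the Irx3 peak and that of Crnde 1545 bp from the Irx5 peak in replicate 1. Irx genes had few distal peaks, 4 in replicate 1 and 3 in replicate 2 over all 6 genes, of which the strongest lay 14374 bp downstream of the nearest start of Irx3, with 1.58 and 1.82.

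Open members were mostly weak. Of the 16 open in replicate 1, 12 fell below the 25th percentile of open coding genes, and of the 14 in replicate 2, 10 did. The median signal was 1.11 over open members and 4.83 over open coding genes in replicate 1, and 0.907 and 3.38 in replicate 2. All 12 members open in both replicates had the higher signal in replicate 1, with a median log2 ratio (replicate 1 over 2) of 0.58, beside 0.55 over the 12257 coding genes open in both. The difference between replicates at these genes was thus near that of the libraries as a whole.

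CpG-rich starts, which were open in most coding genes, were mostly without a stricter start peak among members. Within 500 bp either side of a start, the median observed over expected CpG ratio was 0.673 in members and 0.552 in all coding genes. A ratio over 0.6 was found for 42 of 56 members, beside 46.0% of coding genes. Of these 42 CpG-rich members, 11 (26.2%) were open in both replicates, beside 88.1% of CpG-rich coding genes, and 26 (61.9%) were closed in both, beside 8.61%. In the fifth of coding genes with the highest ratio, 4 of 14 members were open in both, beside 93.0% of coding genes. The median ratio was 0.714 in the 12 open in both and 0.647 in the 38 open in neither.

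**Figure D4:**
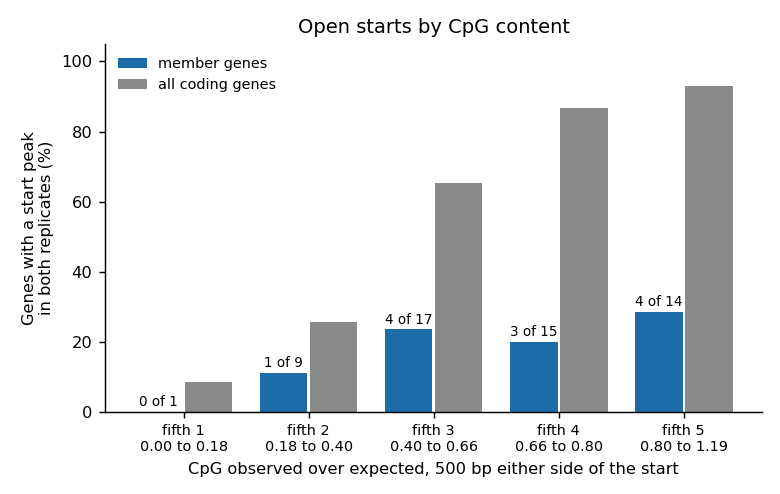
Share of genes with a start peak in both replicates (percent) by the fifth of coding genes that the CpG observed over expected ratio puts them in, with member genes in blue beside all coding genes in grey. Labels give the number of open members of all members in each class. Coding genes reach 93.0% in the class with the highest ratio, where 4 of 14 members were open.

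The contrast was plain among single genes. Pou2f1, with a ratio of 0.986 and 107 CpG, had the strongest start of all members. Pou4f1 (1.02), Nkx6-2 (0.978), Nkx2-4 (0.935), Six2 (0.930), Nkx1-1 (0.917) and Irx1 (0.898) had ratios near it, and none of them had a start peak of the stricter list in either replicate. The longer list of replicate 1 held start peaks of Nkx6-2 (0.914) and Nkx2-4 (0.328), and the lowest FDR at Nkx2-4 there was 0.000348. Pou4f1, Six2, Nkx1-1 and Irx1 had no start peak in the longer list either. Irx2, with 124 CpG and a ratio of 0.917, had the weak peak in replicate 2 alone. Pou5f2 was the one member open in both replicates with a ratio under 0.6, at 0.337.

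Members also had fewer peaks around them. The mean number of peaks centred within 50 kb of a start was 3.35 ± 0.0631 per member and 6.90 ± 0.194 per coding gene (SD, n = 2). The difference was smaller for distal peaks, with 1.79 ± 0.0631 per member and 3.11 ± 0.165 per coding gene, and the medians were 1 and 1 in replicate 1, and 1 and 2 in replicate 2. At least 1 distal peak was present in at least 1 replicate for all but 11 members (19.6%), beside 24.7% of coding genes without one. Without any peak of the stricter list within 50 kb in both replicates were 8 members (14.3%), beside 15.3% of coding genes, which is close to the background. They were Lhx8, Pou4f1, Pou4f2, Pou4f3, Dlx5, Dlx6, Irx1 and Irx4. By the longer list, 3 members (5.36%) had none in both replicates, beside 8.28% of coding genes.

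Windows of clustered members overlap, so each distal peak was also counted once over the joined windows. The 5.72 Mb around members held 91 distal peaks in replicate 1 and 95 in replicate 2, or 16.3 ± 0.495 per Mb, beside 21.7 ± 2.44 around all coding genes (SD, n = 2). By family the mean was 25.4 per Mb for Lhx, 23.8 for sine oculis genes, 16.8 for Nkx, 14.1 for Pou, 11.0 for Dlx and 5.75 for Irx. The sine oculis value was 18.3 in replicate 1 and 29.3 in replicate 2, below and above the Lhx value, so these families could not be ordered. Nor could Dlx, with 13.8 in replicate 1 and 8.25 in replicate 2, and Pou, with 13.3 and 14.8. By the longer list Dlx had 35.8 and 19.3 per Mb, and Pou 25.2 and 23.7. Of the members' distal peaks, 65.9% in replicate 1 overlapped a peak of replicate 2, and 63.2% in replicate 2 one of replicate 1, beside 72.5% and 58.2% of all distal peaks. The nearest coding start was that of a member for 57.1% and 61.1% of these peaks, so the others may belong to neighbours.

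**Figure D5:**
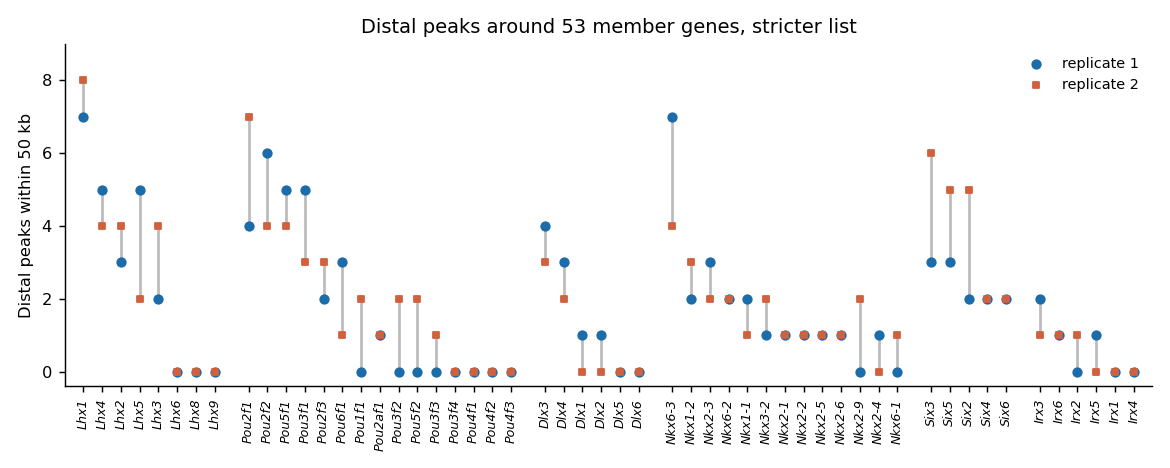
Number of distal peaks of the stricter list within 50 kb of 53 of the 56 members, by family and then by mean count. Blue circles are replicate 1, orange squares replicate 2, and grey lines join them. Lhx1 has most, with 7 and 8, and 11 members have none in either replicate.

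Several of the strongest shared distal peaks held the same letters in their footprints. The peak 8125 bp upstream of Pou2f2, with signals of 5.10 and 2.52, and the peaks of Nkx3-2 and Six3 described above are shown for comparison with that of Dlx3. The Pou2f2 and Nkx3-2 peaks are given on the minus strand, chr7:25187761-25187940 and chr5:41768501-41768680, and the Six3 peak on the plus strand, chr17:85633741-85633920. All are of mm10, with bases under footprints of both replicates in capitals.

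Pou2f2 distal peak: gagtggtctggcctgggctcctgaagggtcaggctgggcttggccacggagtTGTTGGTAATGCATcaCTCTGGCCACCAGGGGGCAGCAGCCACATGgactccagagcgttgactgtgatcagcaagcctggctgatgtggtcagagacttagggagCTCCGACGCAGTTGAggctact
Nkx3-2 distal peak: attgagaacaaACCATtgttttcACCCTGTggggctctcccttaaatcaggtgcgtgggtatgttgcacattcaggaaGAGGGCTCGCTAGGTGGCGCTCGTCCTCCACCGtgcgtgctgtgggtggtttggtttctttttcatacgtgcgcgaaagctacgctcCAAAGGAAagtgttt
Six3 distal peak: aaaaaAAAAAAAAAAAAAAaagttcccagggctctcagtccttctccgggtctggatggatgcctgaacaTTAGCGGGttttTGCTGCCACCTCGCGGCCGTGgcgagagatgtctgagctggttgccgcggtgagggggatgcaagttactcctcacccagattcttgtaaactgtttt

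These peaks and that of Dlx3 hold the letters AGGNGGC, part of the core of the binding site of the insulator protein CTCF, at position 80 in Pou2f2, 90 in Nkx3-2, 94 in Dlx3 and 87 in Six3. In Dlx3 and Six3 they are on the strand opposite to the printed one. In all 4 peaks, each of the 7 letters lay under footprints of both replicates. The letters were looked for on both strands after the sequences were seen, and in these peaks they overlap no other motif named here. Among distal peaks of both replicates, 28 of 60 near members held them in replicate 1 (46.7%) and 25 of 60 in replicate 2 (41.7%). The 4 peaks above are counted among them, so this share is not independent of the choice of letters. Over all distal peaks of both replicates the share was 31.7% in replicate 1 and 33.1% in replicate 2. By family in replicate 1, they were in 9 of 18 such peaks of Lhx genes, 9 of 18 of Pou, 6 of 13 of Nkx, 3 of 6 of sine oculis, 1 of 3 of Dlx and 0 of 2 of Irx genes. Besides those printed, the peaks at the last exon of Lhx5, in Fgfr2 near Nkx1-2 and 5532 bp downstream of the start of Nkx6-3 (4.0 and 1.86) held them, while the strongest peaks of Lhx3 and Irx3 did not. The letters were not particular to distal peaks. Start peaks of members held them in 15 of 34 in replicate 1 (44.1%) and 9 of 31 in replicate 2 (29.0%). Over start peaks of all coding genes the share was 40.4% and 37.0%. The printed start of Lhx1 holds them outside the footprints. That of Pou2f1 holds them at position 217, among others, with all 7 letters under footprints of both replicates. There they overlap the letters GGGCGG (a GC box) at position 220, of which all 6 were protected too. Those letters occurred in 52.5% and 48.3% of the start peaks of all coding genes.

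Footprint density in start peaks was slightly lower in members than in all coding genes. Members had 13.7 footprints per kb of start peak in replicate 1, where all coding genes had 15.1. In replicate 2 members had 12.1, and all coding genes 14.0. Start peaks without a footprint were 4 of 34 (11.8%) in members in replicate 1, beside 12.7% for all coding genes, and 4 of 31 (12.9%) in replicate 2, beside 18.5%. Counted per gene, members had a mean of 3.68 and 2.48 footprints within 1 kb of a start, and all coding genes 7.49 and 6.93. A footprint was present at 22 members in replicate 1, beside 61.7% of coding genes, at 16 in replicate 2, beside 59.6%, and at 15 in both, beside 58.5%.

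Binding letters of the families themselves were rare in footprints everywhere. The motifs were TAATTA (LIM, Dlx and other homeodomain factors), ATGCAAAT (POU), CACTTNA (Nkx), TCAGGTT (sine oculis factors) and ACATGT (Irx), on both strands and in footprints widened by 5 bases each side. None of the 206 footprints at member starts in replicate 1 and none of the 139 in replicate 2 held any of them. Over all footprints of a library the shares were also low, for example 0.106% and 0.170% for TAATTA and 0.0366% and 0.0499% for ATGCAAAT, so a count of 0 at this number is near the background. In the distal peaks near members, TAATTA occurred in 2.20% and 4.21%, beside 2.42% and 3.64% of all distal peaks. TCAGGTT occurred in 3.30% and 5.26%, beside 2.96% and 3.06%, and CACTTNA in 7.69% and 10.5%, beside 7.76% and 8.71%. ACATGT occurred in 1 of 91 and 2 of 95 such peaks, beside 3.67% and 4.17% of all distal peaks, and ATGCAAAT in none, beside 0.690% and 0.799%. Each of these shares near members rests on 10 peaks or fewer. The Dlx3 peak printed above holds TCAGGTT at position 178, with all 7 letters under footprints of both replicates. CACTTNA stands at positions 17 and 202 of the Pou2f1 start and outside the footprints.

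Cofactors of these families were described beside them. Of 25 cofactors and other LIM genes, 14 had a start peak in both replicates, beside 55.9% of all coding genes, 2 in a single replicate and 9 in neither. The Groucho-type corepressors Tle4 (20.4 and 18.1), Tle1 (13.7 and 10.5) and Tle3 (11.4 and 9.08) led, and Tle2 and Tle6 were open too. Ldb1, the cofactor that LIM homeodomain factors bind, had 4.69 and 3.43, and its single-stranded DNA binding partner Ssbp2 had 9.33 and 5.91. Of the sine oculis partners, Eya3 had 6.72 and 5.35, Eya1 had a stricter peak of 0.443 in replicate 1 alone, and Eya2 and Eya4 had no stricter peak in either replicate. The longer list held start peaks of Eya1 (0.177) and Eya2 (0.626) in replicate 2 and of Eya4 (0.236) in replicate 1. The remaining LIM homeobox genes Isl1, Isl2, Lmx1a and Lmx1b had no start peak of the stricter list in either replicate. In the longer list, Isl2 had a start peak in both replicates, while Isl1, Lmx1a and Lmx1b had none in either.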

How the data were processed

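DNase-seq was measured in 2 libraries of mouse cerebellum. The authors deposited, for each library alone and without pooling, 2 peak lists with a signal value per peak, a table of the FDR (a q-value) of the local cut rate that lists intervals under 0.05 alone, and footprints called at one FDR of 0.01, per the deposited text. The assembly was mm10, per the labels. The sources used here name no aligner or caller, give no read numbers and do not say how reads with CAST variants were aligned. The scale of the deposited signal is not given either, so it was ranked within a library, and ratios between replicates were set beside those of all coding genes. The stricter list was told apart by its content: each of its peaks held a base of FDR under 0.001, which 64.1% and 63.9% of the peaks of the longer list held as well.

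From these files, starts were every transcript start of GENCODE release 21, a start peak overlapped 1 kb either side by 1 bp or more, and nearby peaks had their centre within 50 kb. Peaks of a list may overlap each other and were counted as listed. CpG ratios and sequences were read from GRCm38.p6 of RefSeq, whose table of upstream sequences held 40 of the 56 members. Tools were Python 3.11.15, pandas 2.3.3 and numpy 2.4.6. The counting was tested on simulated peaks. The rule for named genes gave full values for the 3 leading starts of each family, for starts open in 1 replicate and for the leading distal peaks. Members, lists and motifs were chosen with earlier results of these data known. Results of some members are not reported here, though counts include them. With 1 group there was no test.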

Additional observations from a re-analysis of the deposited data

How the results depend on the processing

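Of 99 recomputed values over 14 settings, 77 moved by less than the limits used, 1.5 times for a count and 1 SD for a mean, and 22 moved by more. The 77 include values that could not move. Leaving out either of 2 replicates shifts a mean by less than 1 SD whatever the values. The strongest start signal stayed at 8.62 with the longer list and with other start windows, where the same Pou2f1 peak was read. The tally is therefore no measure of robustness. With only the stronger peaks of each list (signal above the list's median), 7 members were open in both replicates, beside 49.7% of coding genes, with 4 Pou and 1 Irx gene. With the longer list 3 Lhx genes were open. Leaving out a replicate gave 2 Lhx genes either way, and 0 to 1 Nkx genes. Peaks within 50 kb per member became 5.35 with the longer list, 1.88 within 25 kb, 7.12 within 100 kb, 1.62 with the stronger peaks and 3.12 with starts of coding transcripts alone. Distal peaks per member became 3.26, 0.938, 3.89 and 0.643 for the first 4 of these settings. Distal peaks per Mb became 29.2 with the longer list, 18.6 within 100 kb and 5.86 with the stronger peaks. Footprints per member, a mean of 3.08, became 1.97 for those inside stricter peaks and 1.69 for those of both libraries. The signal of Pou2f1, a mean of 8.62, was 7.34 in units of the list's median. These shifts follow from counting more or fewer peaks, footprints or bases, or from the unit. No paired analysis was possible because there was 1 group. Signals near the smallest step of a library carry most counting error, and with 2 libraries a peak found in 1 alone cannot be read as a difference.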
